A study of Mus musculus with 2 samples.

Results

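The S100 proteins are a vertebrate family of small calcium-binding proteins. Their messenger RNA was measured by total RNA-seq in cells from mouse bone marrow labelled megakaryocyte progenitor (CFU-Meg), the precursor of the cells that release platelets. The genes described here are the 9 family members S100a1, S100a4, S100a6, S100a8, S100a9, S100a10, S100a11, S100a13 and S100b, of 43346 Ensembl genes in the tables. They were found by matching the gene identifiers of the tables to GENCODE symbols, and all 9 had a row in both libraries. The study has 1 group of 2 libraries, called replicates 1 and 2, both from adult male mice of the strain C57BL/6J, aged 5 to 6 weeks, with no treatment or genetic change named in the labels. Each library was made from 1 ng of RNA with spike-ins, and the replicates are separate biosamples under 1 donor identifier, which leaves unknown whether their spread is one between animals. The labels give no second group, so levels are described, and the only test compares the 2 libraries with each other.

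An S100 protein carries a pair of EF-hand loops that bind calcium, and most members work as dimers that change shape with calcium and then grip a partner protein. S100a8 and S100a9 pair to form calprotectin, the most abundant cytosolic protein of neutrophils, which chelates metal ions and signals as an alarmin once it is released. In marrow the pair is known for its sharp rise as myeloid progenitors mature into granulocytes and monocytes, and calprotectin is also carried by platelets and their precursors. Other members serve as adaptors of annexins at membranes, as partners of the cytoskeleton, or in export without a signal peptide.

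Expected counts, the estimated numbers of reads per gene, totalled 82746658 in replicate 1 and 75652762 in replicate 2. TPM is the authors' level of a transcript per unit of its length, scaled to the same total in each library. The label was checked against markers of several lineages. Megakaryocyte genes were low: the 10 markers summed to 11.2 TPM in the first replicate and 6.80 TPM in the second, Itga2b (CD41) stood at 2.63 and 2.18 TPM, Tubb1 had no reads, and 2 of the 10 reached 1 TPM in both libraries. Neutrophil primary granule genes were very high, with 13100 and 11650 TPM over 4 markers, and markers of late granules and mature neutrophils summed to 871 and 1289 TPM over 10. The lists that differed between the libraries are given beside the results they accompany.

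The stretches in front of the 3 members whose promoters held the letters TATAAA, and of S100a11 as the abundant member without them, are shown so that abundant and low members can be set side by side. They come from RefSeq on GRCm38.p6, run 5′ to 3′ on the strand of the gene, and TATAAA is in capitals. The stretches of S100a8 (chr3:90669041-90669070, plus strand), S100a4 (chr3:90603650-90603769, plus strand) and S100a11 (chr3:93520376-93520495, plus strand) end on the base before the RefSeq start. The one of S100a8 was cut to 30 bases because GENCODE M21 starts the gene further upstream, at 90668978. The printed bases of S100a8, TATAAA included, thus lie inside the M21 gene and are in front of the RefSeq start only. The last bases of the S100a11 stretch also lie inside its M21 gene, which starts at 93520488. The stretch of S100a9 (chr3:90695716-90695835, minus strand) ends 6 bases into the RefSeq transcript. The last sequence is the whole gap between S100a1 and S100a13 (chr3:90514393-90514434, plus strand).
S100a8: TATAAAagcagctgacacttagcctcacat
S100a9: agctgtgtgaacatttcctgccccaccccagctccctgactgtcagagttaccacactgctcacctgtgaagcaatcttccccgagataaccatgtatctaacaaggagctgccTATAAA
S100a4: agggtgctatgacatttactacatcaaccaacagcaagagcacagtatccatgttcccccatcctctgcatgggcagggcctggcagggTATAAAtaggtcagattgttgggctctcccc
S100a11: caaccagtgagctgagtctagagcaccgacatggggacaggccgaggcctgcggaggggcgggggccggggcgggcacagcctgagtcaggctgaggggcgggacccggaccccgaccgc
S100a1-S100a13 gap: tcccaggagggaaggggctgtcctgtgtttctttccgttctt

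The S100 genes ranged from among the most abundant messenger RNAs of these libraries to none detected. Both libraries held at least 1 TPM of 8 of the 9 members (88.9%), against 46.2% of the 21474 protein-coding genes (9924 genes). The median member stood at 55.4 ± 6.99 TPM (SD, n = 2), with 50.4 in replicate 1 and 60.3 in replicate 2, against a median of 0.585 TPM over all protein-coding genes. The members were chosen with earlier results known, so the distance between these medians is a description. Together the 9 genes held 3324 TPM in replicate 1 and 5325 TPM in replicate 2, or 0.332% and 0.532% of all TPM. In a bulk sample, fewer cells of a type and less RNA per cell cannot be told apart.

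**Figure D1:**
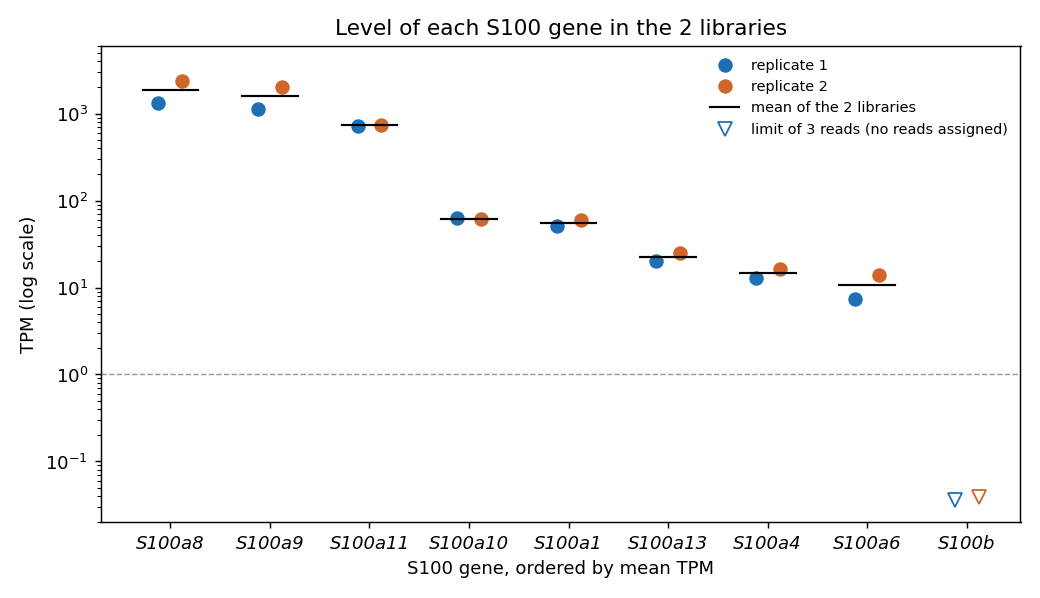
TPM of each S100 gene (log scale) in replicate 1 (blue) and replicate 2 (orange), with the mean of both as a bar and the limit that 3 reads would give for S100b as open triangles. S100a8, S100a9 and S100a11 stand at 718 TPM or more, the other 5 detected members lie between 7.38 and 63.5 TPM, and the dashed line marks 1 TPM.

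Calprotectin dominated the family. S100a8 (ENSMUSG00000056054.8, chromosome 3, 90668978 to 90670035, plus strand) encodes the light chain and stood at 1313 TPM in replicate 1 and 2377 TPM in replicate 2, from 20667 and 35149 expected counts. Its mean of 1845 ± 752 TPM (SD, n = 2) ranked 29 among protein-coding genes. S100a9 (ENSMUSG00000056071.8, chromosome 3, 90692632 to 90695721, minus strand), the heavy chain, stood at 1138 and 2030 TPM, from 26414 and 44143 expected counts. Its mean of 1584 ± 631 TPM (SD, n = 2) ranked 38. Replicate 2 was the higher library for both chains, and the chains together made up 73.7% of the members' summed TPM in replicate 1 and 82.8% in replicate 2.

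The chains kept their proportion while their level differed. The TPM of S100a8 was 1.15 times that of S100a9 in replicate 1 and 1.17 times in replicate 2. As log2 of S100a9 over S100a8 this is -0.22 ± 0.015 (SD, n = 2). Which chain leads depends on the length used. The deposited table gives S100a8 a transcript of 392 bases and S100a9 one of 512, and by reads S100a9 was the higher, at 1.28 and 1.26 times the count of S100a8. GENCODE M21 gives S100a8 a transcript of 486 bases, with which the log2 value turned to 0.24 in favour of S100a9. The range of S100a8 over the libraries overlapped that of S100a9. The order of the chains thus depends on the annotation, whereas their ratio differed little between the libraries. The TPM and rank of S100a8, its part in the family sum and its multiples of other members rest on the deposited length too.

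The annexin-binding members came next. S100a11 (ENSMUSG00000027907.4, chromosome 3, 93520488 to 93526287, plus strand), a partner of annexin A1 in membrane repair and vesicle traffic, stood at 718 TPM in replicate 1 and 742 TPM in replicate 2. Its mean of 730 ± 16.7 TPM (SD, n = 2) ranked 100 among protein-coding genes, and both libraries lay below both values of S100a9. S100a10 (ENSMUSG00000041959.10, chromosome 3, 93555080 to 93564643, plus strand), known as p11, locks into a tetramer with annexin A2 and has lost the ability to bind calcium. It stood at 63.5 and 60.7 TPM, with a mean of 62.1 ± 1.97 TPM (SD, n = 2). S100a11 was 11.3 times S100a10 in replicate 1 and 12.2 times in replicate 2, the widest step between neighbours among the detected members.

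S100a11 has processed pseudogenes, intronless copies whose reads cannot be assigned with certainty to the copy or the gene. The GENCODE M21 annotation held 9 copies with an alignment, of which 7 had a row in the tables. Gm12854, identical to S100a11 at 99.0% of 297 aligned bases, was assigned 72.6 TPM in replicate 1 and 83.3 TPM in replicate 2. All copies together took 4.31% and 4.87% as many expected counts as S100a11. With their TPM added, S100a11 stood at 791 and 826 TPM, still below S100a9. That sum overstates the shift, because the TPM of a copy is per its own, shorter length. Counted in reads, giving all reads of the copies to S100a11 would raise it by the 4.31% and 4.87% above. How many reads of S100a11 belong to a copy, with or without a row, was not measured.

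S100a1 and S100a13 lie head to head. S100a1 (ENSMUSG00000044080.9, chromosome 3, 90511034 to 90514392, minus strand), best known as a regulator of calcium release in heart and skeletal muscle, stood at 50.4 TPM in replicate 1 and 60.3 TPM in replicate 2. S100a13 (ENSMUSG00000042312.9, chromosome 3, 90514435 to 90524581, plus strand), which takes part in the export of fibroblast growth factor 1 and interleukin 1 alpha, stood at 20.3 and 24.7 TPM. Their gene bodies are 42 bases apart, the gap printed above. S100a1 was 2.49 times S100a13 in replicate 1 and 2.44 times in replicate 2. Both genes were higher in replicate 2. Fgf1, the cargo of S100a13, had no reads in replicate 1 and 0.02 TPM in replicate 2.

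S100a4 and S100a6 were the lowest detected members. S100a4 (ENSMUSG00000001020.7, chromosome 3, 90603771 to 90606045, plus strand), a partner of non-muscle myosin IIA in cell movement, stood at 12.95 TPM in replicate 1 and 16.5 TPM in replicate 2. S100a6 (ENSMUSG00000001025.4, chromosome 3, 90612882 to 90624181, plus strand), calcyclin, stood at 7.38 and 13.8 TPM. Their ranges over the libraries overlapped. Within each library S100a4 was the higher, at 1.75 times S100a6 in replicate 1 and 1.19 times in replicate 2. The 2 libraries alone do not settle the order. The gene Gm42674, which had no row in the tables, overlaps S100a4 on the same strand and shares 302 bases with it at 100% identity.

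S100b, the astrocyte and Schwann cell member used as a marker of brain injury, was not detected. S100b (ENSMUSG00000033208.7, chromosome 10, 76253853 to 76261159, plus strand) had 0 expected counts in each library. A count of 0 allows up to 3 reads, which would be 0.0359 TPM in replicate 1 and 0.0386 TPM in replicate 2. Of the astrocyte markers, Aqp4 had no reads in either library, and Gfap had none in replicate 1 and 0.04 TPM in replicate 2. Dip2a, which overlaps S100b on the opposite strand, stood at 0.53 and 0.49 TPM.

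From highest to lowest by mean TPM the order was S100a8, S100a9, S100a11, S100a10, S100a1, S100a13, S100a4, S100a6 and S100b. Neighbours whose ranges overlapped were S100a8 with S100a9 and S100a4 with S100a6. S100a10 and S100a1 were separated only by the gap from 60.7 to 60.3 TPM, each in replicate 2. In the other steps the ranges over the 2 libraries did not overlap.

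The family differed between the replicates in an uneven way. Each gene's reads in replicate 2 were set against those in replicate 1 by an exact binomial test (two-sided), given the library ratio of the TMM scaling, and p-values were adjusted by Benjamini-Hochberg over all 16850 genes tested. This test compares 2 libraries, not conditions, and covers counting error only. At an adjusted p under 0.05 and a difference of at least 2-fold (an absolute log2 ratio of 1), 0 of the 8 members tested were called, where 17.0% of all genes tested were called, and 7 of the 8 had an unadjusted p under 0.05. The share over all genes is not stable: with counts divided by 4, to allow for duplicate reads, 855 of 16850 genes were called, and with the filterByExpr filter, tried after the data were seen, 1096 of 14304, while the members called stayed at 0. At any ratio, 7 members passed the adjusted threshold, all 7 higher in replicate 2, and 5 did so with counts divided by 4. Over all genes tested, 60.8% passed at any ratio and 29.8% passed in that direction. At this depth ratios close to 1 can pass, and the size of each ratio is therefore given.

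S100a8, S100a9 and S100a6 had the largest ratios of the family. S100a8 was 1.89 times as high in replicate 2 (log2 ratio 0.92) and S100a9 1.86 times (0.90), both with an adjusted p too small for the computation to hold. S100a6, with 266 and 465 expected counts, was 1.94 times as high in replicate 2, a log2 ratio of 0.96 (adjusted p = 1.8e-17, exact binomial test with Benjamini-Hochberg adjustment). The TPM of S100a8 was 178 times that of S100a6 in replicate 1 and 172 times in replicate 2, so the ratio of these genes changed little while both differed. All 3 lay just under the 2-fold limit.

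The other members moved less. S100a4 had a log2 ratio of 0.41, S100a13 one of 0.34 and S100a1 one of 0.30. S100a11 had a log2 ratio of 0.11, a 1.08-fold difference (adjusted p = 2.1e-10, exact binomial test with Benjamini-Hochberg adjustment). S100a10 had a log2 ratio of -0.01 and did not pass (adjusted p = 0.87, same exact test), and it was the only member tested that was not higher in replicate 2. The median log2 ratio of the 8 members was 0.37, against -0.004 over all genes tested. S100a8 was 1.83 times S100a11 in replicate 1 and 3.20 times in replicate 2, while the 7 members other than the calprotectin chains summed to 873 and 918 TPM.

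Among genes at or above a floor of level the calprotectin chains were near the edge. Among the 589 protein-coding genes with a mean of 100 TPM or more, whose median log2 ratio was 0.09, 2 had a ratio at least as high as that of S100a8 and 3 at least as high as that of S100a9, the gene itself included. The gene that joined both chains there was Camp, which encodes the antimicrobial peptide CRAMP of late granules. Among 5416 protein-coding genes of 10 TPM or more, with a median of 0.03, 13 (0.24%) had a ratio at least as high as that of S100a6. The same count was 176 for S100a4, 298 for S100a13, 415 for S100a1 and 3261 for S100a10. Both sets have a floor and no upper limit, and S100a6 lies near the floor of its own.

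**Figure D2:**
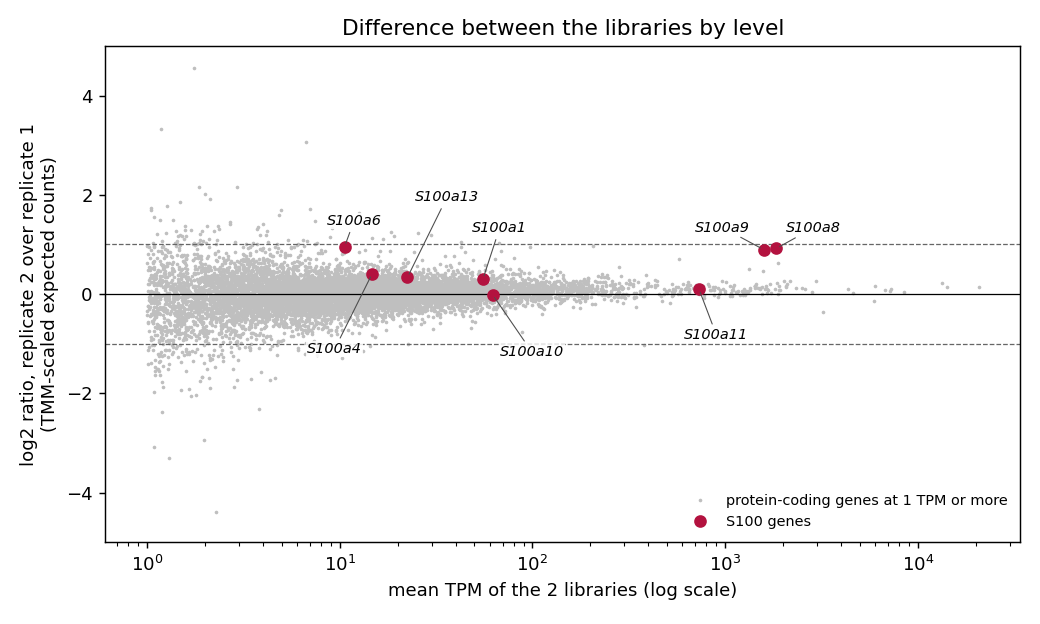
Log2 ratio of replicate 2 over replicate 1 from TMM-scaled expected counts against mean TPM (log scale), for 10164 protein-coding genes at a mean of 1 TPM or more (grey; 1 gene lies beyond the axis) and the 8 detected S100 genes (red). S100a8 and S100a9 lie at 0.92 and 0.90 above nearly all genes of their level, S100a6 at 0.96, and S100a11 and S100a10 near 0; dashed lines mark a log2 ratio of 1 and -1.

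Markers of granulocytes and of other lineages also differed between the libraries. Late granule and mature neutrophil genes had a summed TPM in replicate 2 that was 1.48 times that in replicate 1. All 10 were at 1 TPM or more, 7 were higher in replicate 2 and 3 lower. Camp stood at 142 and 268 TPM and Ngp, a cathelicidin relative of the same granules, at 447 and 702 TPM, whereas Ly6g and Cxcr2, genes of mature neutrophils, stood at 6.74 and 5.14 TPM and at 3.82 and 2.17 TPM. Monocyte and macrophage genes summed to 136 and 177 TPM, with 7 of 9 higher in replicate 2. The summed TPM of the primary granule genes was lower in replicate 2, as given above, but only 2 of the 4 were lower, Mpo at 6306 and 5478 TPM and Elane at 3661 and 2759 TPM, and Prtn3 and Ctsg were higher there. Erythroid genes summed to 552 and 289 TPM, mostly Car1 at 512 and 242 TPM, yet 4 of the 8 were higher in replicate 2 and 4 lower. Of these, Car1 and Gata1 were called lower, and the globin genes Hba-a1 at 5.76 and 11.98 TPM and Hbb-bs at 6.87 and 18.4 TPM were called higher. Of the 10 megakaryocyte genes, 4 were higher in replicate 2 and 5 lower, with 2 called higher and 3 called lower. The share called over all genes tested was 17.0%. T and natural killer cell genes summed to 352 and 326 TPM, nearly all Nkg7, with Cd3e at 0. Their part in the S100 ratios was not tested.

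The machinery around calprotectin was present. For the NADPH oxidase, the neutrophil enzyme to which the S100a8 and S100a9 dimer carries arachidonic acid, all 6 subunit genes were at 1 TPM or more, and their median was 57.2 TPM. The highest were Rac2 at 114 and 131 TPM, Ncf1 at 57.0 and 62.5 TPM and Ncf4 at 52.4 and 62.3 TPM. All 6 had a higher TPM in replicate 2 and 0 were called, their log2 ratios running from 0.18 to 0.48. Of 9 myeloid transcription factors, several known to act on the calprotectin genes, all 9 were at 1 TPM or more, and their median was 16.1 TPM. Spi1, the ETS factor PU.1, stood at 75.1 and 97.7 TPM, Irf8 at 33.5 and 49.3 TPM and Cebpa at 23.6 and 25.4 TPM. None of the 9 was called between the libraries, and 7 had a higher TPM in replicate 2. Over all genes tested 17.0% were called, so 0 calls in lists this small are not read as a result.

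**Figure D3:**
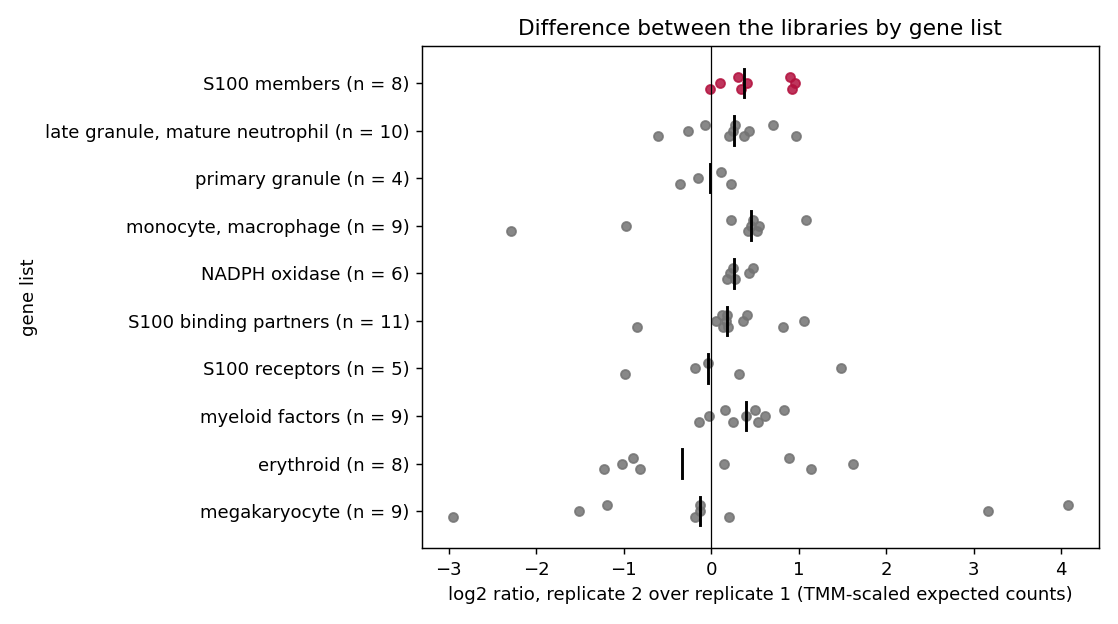
Log2 ratio of replicate 2 over replicate 1 from TMM-scaled expected counts for each tested gene (points) of the S100 family and 9 other lists, with the median of each list as a bar. The S100 genes run from -0.01 to 0.96, the oxidase genes from 0.18 to 0.48, the late granule genes from -0.60 to 0.97, and the megakaryocyte genes, which have few reads, from -2.95 to 4.08.

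Receptors for extracellular S100 proteins were low with 1 exception. Bsg (basigin), a widely expressed surface protein that binds S100a9, stood at 194 and 183 TPM. Tlr4, the receptor through which calprotectin triggers cytokine release, stood at 5.70 and 6.37 TPM, and its co-receptor Cd14 at 4.02 and 10.9 TPM. Of the 5 receptor genes, 4 were at 1 TPM or more in each library. Only Cd14 of the 5 was called, with a log2 ratio of 1.48 (adjusted p = 8.2e-66, exact binomial test with Benjamini-Hochberg adjustment). The share called over all genes tested was 17.0%.

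Some of the listed partners were as abundant as the members they bind, and others were absent. Of 15 listed partners, 9 were at 1 TPM or more in each library, and the median was 6.38 TPM. Of the 11 tested 0 were called, where 17.0% of all genes tested were called. Anxa1, the partner of S100a11, was the highest, at 199 and 241 TPM, or 0.28 and 0.33 of the TPM of S100a11. Cacybp, the calcyclin-binding protein that S100a6 is named with, stood at 140 and 154 TPM, more than 10 times S100a6 itself in both libraries. Myh9, the myosin heavy chain bound by S100a4, stood at 78.6 and 69.0 TPM. Anxa2 stood at 45.5 and 58.3 TPM, below S100a10 in both libraries, at 0.72 and 0.96 of its TPM. Plat, Syt1 and Ryr2, partners in endothelium, neurons and heart, had no reads in either library.

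The remaining S100 genes had few reads or none. Of 10 further family genes listed, 8 had a row, none reached 1 TPM and 6 had no reads. S100a16 and S100g had the only reads, 7 expected counts in replicate 2 for S100a16 and 2 in replicate 1 for S100g, named here after their values were seen. Of the 7 genes of the fused type, which join an S100 domain to a long repeat in skin and hair, 6 had no reads, and Tchh stood at 0.09 and 0.10 TPM.

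Detected and undetected genes are interspersed along chromosome 3. The first block of the cluster spans 185 kb from S100a1 to S100a9 and holds 12 S100 genes, 6 of them the members S100a1, S100a13, S100a4, S100a6, S100a8 and S100a9. The 6 others there (S100a14, S100a16, S100a3, S100a2, S100a5 and S100a7a) had no reads, except S100a16 with 0.42 TPM in replicate 2. S100a5 lies between S100a4 and S100a6, and S100a7a lies next to S100a8, in the 44.8 kb between S100a6 and S100a8. The calprotectin genes are 22.6 kb apart. S100a11 and S100a10 form a second block of 44.2 kb, 2.82 Mb further on, and S100b is on chromosome 10. Of the 4 genes in the first block outside the family, 2 had a row, and both had no reads.

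**Figure D4:**
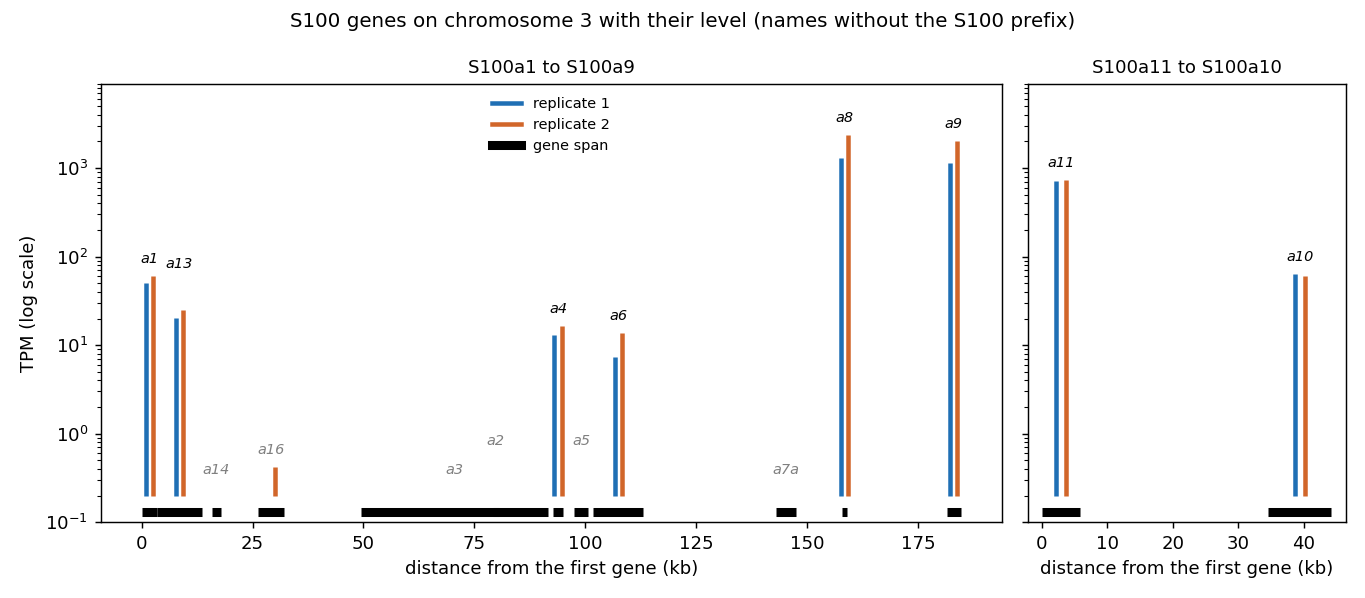
TPM (log scale) of the S100 genes on chromosome 3 in replicate 1 (blue) and replicate 2 (orange) by distance from the first gene of each block in kb, with gene spans in black and genes that are not members in grey. Bars start at 0.2 TPM; S100a8 and S100a9 stand at 1138 TPM or more next to S100a7a, which had no reads.

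The members share a gene structure. In GENCODE M21, 8 of the 9 leading transcripts have 3 exons, S100a13 has 4, and the first exon is noncoding in all 9. Coding sequences run from 270 to 483 bases with the stop codon. Over the 36 pairs of members, coding sequences were identical at 35.2% to 63.2% of aligned bases (median 51.5%), highest for S100a1 with S100b, and S100a8 and S100a9 shared 48.0%. All of these identities lie below the 99.0% between S100a11 and Gm12854.

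In most members 1 transcript took the reads. S100a6, S100a8, S100a11, S100a13 and S100b had 1 annotated transcript each, and S100a4 had 100% of its TPM on 1 of 3. S100a10 had 100% in replicate 1 and 99.3% in replicate 2 on its leading transcript. S100a9 had 96.2% of its TPM on ENSMUST00000069960.7 in replicate 1 and 89.4% in replicate 2. Its second transcript, ENSMUST00000117167.1, took 42.7 TPM in replicate 1 and 215 TPM in replicate 2, and the deposited credibility intervals, 25.0 to 66.0 and 172 to 274 TPM, do not overlap. In M21 it has the same coding sequence and starts 10 bases further upstream. The deposited lengths of the 2 transcripts are 512 and 519 bases. Each interval covers the estimate within its own library only, and a difference in share between the libraries was not tested. S100a1 had 90.2% and 85.8% on its leading transcript, and the intervals of its second one, 2.89 to 7.36 and 6.07 to 11.04 TPM, overlap.

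The promoter windows of 8 members were found in the RefSeq table of 32851 promoters (250 bases before the start and 50 after). TATAAA, the core of the TATA box, stood in 13.6% of all windows on either strand and in 3 of the 8. It lay 30 bases before the RefSeq start of S100a8 and 31 bases before that of S100a4. In S100a9 it began at the first base of the RefSeq transcript, as capitals above show. That base is the outermost of the M21 gene, and the leading S100a9 transcript starts downstream of the TATAAA. The M21 gene of S100a8 begins upstream of its TATAAA. TTNNGNAA, the core bound by C/EBP factors, stood in 40.7% of all windows and among the members in S100a8 at 1 place and S100a9 at 2. GGAAGT, bound by ETS factors such as PU.1, stood in 23.8% of all windows and in 7 of the 8 members, all but S100a6. TGTGGT, bound by RUNX factors, stood in 16.8% of windows, in S100a9 at 1 place and in S100a6 at 3. All 4 were searched on both strands, and TTNNGNAA can overlap GGAAGT. These matches are letters in a window, not sites shown to be bound.

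Base composition differed among the windows. Over the 250 bases before the start, S100a1 had 61.6% G and C, S100a11 60.0%, S100a13 58.8% and S100a4 57.2%, above the median of 52.4% over all promoters. S100a9 and S100b had 53.6%, and S100a8 with 50.8% and S100a6 with 50% lay below that median. The stretch of S100a11 printed above has no TATAAA.

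The genes whose levels were most like those of the calprotectin chains included mitochondrial, ribosomal and granule genes. Likeness was the distance over the 2 libraries in log2(TPM + 1), among protein-coding genes outside the family. For S100a8 the nearest 5 were mt-Co3 (distance 0.22), mt-Co2 (0.40), Ctsg (0.49), Rpl23a (0.51) and Srgn (0.52). For S100a9 they were mt-Co2 (0.30), Tmsb4x (0.40), mt-Co3 (0.44), Hspa8 (0.47) and Rps16 (0.51). Ctsg encodes cathepsin G of primary granules, and Srgn the proteoglycan that packs granules. Over 2 libraries the measure weighs level more than pattern, and mt-Co3, the nearest to S100a8, had a TPM ratio of 1.49 between the replicates, against 1.81 for S100a8.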

How the data were processed

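The 2 total RNA-seq libraries form 1 group. According to the deposited file list, reads were aligned to mm10 and quantified against GENCODE M4, each library alone. The column names are those RSEM writes. Aligner, versions, strand and read layout were not given in the sources used here. The authors' expected counts, per the file headers, are estimated reads, divided among the features a read fits. The authors' TPM values are per effective length, scaled to a fixed total over all rows, and the deposited FPKM values are per length and library size. The deposited percent columns hold each transcript's share of its gene's TPM. The deposited score columns hold credibility bounds of the posterior mean, so a TPM can lie just outside them, as for S100a8.

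Symbols and positions came from GENCODE M21 (GRCm38), which matched 42462 of 43346 Ensembl rows (98.0%). A total of 16850 genes with 10 or more counts over both libraries was tested, on rounded expected counts, with TMM factors from edgeR 4.0.16 in R 4.3.3 and a prior count of 2 for ratios. The binomial test used SciPy 1.17.1. It was checked on data simulated with counting error only, the spread that the test assumes. That check says nothing about other spread between libraries. S100 copies were found with BLAST 2.17.0 and coding identities with Biopython 1.88. The limit of a count of 0 is 3 reads and covers counting error only, since PCR copies are not independent molecules. Where nothing says the libraries came from separate animals, p-values measure only the spread of reads.

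Members and gene lists were chosen with earlier results of these data known. Named were all 9 members, other S100 genes at 1 TPM or more, the 3 highest and the undetected genes of each partner list, and the 5 genes nearest to S100a8 and S100a9. Marker genes, Anxa2, Fgf1 and Dip2a are named beside a member after their values were seen. Alternatives covered the TPM estimate, scaling, count filter, prior count, read duplication, and each library alone. Some glial markers and the B cell markers are not reported here.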

Additional observations from a re-analysis of the deposited data

How the results depend on the processing

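No paired analysis was possible because the labels give 1 group. The count of members at 1 TPM or more stayed at 8 under the other TPM estimates and in each library alone, and was 7 at a level of 10 TPM. The median member level of 55.4 TPM became 41.9 in FPKM and 137 with TPM rescaled to nuclear protein-coding genes, and ran from 50.4 to 60.3 in single libraries. The log2 ratio of S100a9 to S100a8 of -0.22 (from -0.23 to -0.21 in single libraries) became -0.33 for the leading transcripts alone. It reversed to 0.34 in expected counts and to 0.24 with S100a8 at its GENCODE M21 length, the latter tried after seeing the data. By construction both undo the short deposited length of S100a8. The number of genes called between the libraries was 2860 of 16850. It was 855 with counts divided by 4, which allows for duplicate reads, and 1096 of 14304 with the filterByExpr filter, added after seeing the data. Scaling by DESeq2 size factors gave 2864 calls, total counts 2845 and no filter 3382 of 19635. Members called stayed at 0 in all of these, and members past the adjusted threshold at any ratio fell from 7 to 5 with counts divided by 4. All 56 alternatives for the members' log2 ratios kept their direction and their side of the 2-fold call, with S100a8 from 0.86 to 0.92, S100a9 from 0.84 to 0.90 and S100a6 from 0.91 to 0.96. With the TPM of its pseudogene rows added S100a11 moved from 730.2 to 808.5 TPM. This overstates the shift, since the TPM of the copies is per a shorter length. Depth limits S100b, S100a16 and S100g, which had 7 or fewer expected counts, and 2 libraries limit every SD.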
